A study of Mus musculus with 4 samples.

Results

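The genes described here are 32 cytokine, chemokine and NF-kB pathway genes of the mouse, chosen by name: cytokine ligands, chemokines, their receptors and adaptor, NF-kB subunits and inhibitors, C/EBP factors with the feedback inhibitor Socs3, inducible enzymes, acute phase genes and the alarmin Hmgb1. Of the 19938 genes with a row of their own in the array table, 29 were members, each represented by its row with the highest mean over the arrays. Il1r1, Nfkb1 and Serpina3g had no row that carried their symbol alone and were not analysed here. Gene expression was measured on Affymetrix whole-transcript arrays in hippocampal RNA of 4 male C57BL/6JJmsSlc mice aged 11 to 12 weeks, 1 array per sample. The 2 arrays of the R-SDS group came from mice after repeated social defeat stress. Each mouse met an aggressive male of the ICR strain for 10 min daily on 10 days, with the pairs changed at random every day. For the rest of the time it lived beside an ICR male, behind a divider with holes. In the study's schedule the hippocampus was collected some days after the last defeat, following tests of social interaction and sucrose preference. The 2 Control arrays came from mice of the same strain that were kept in pairs in divided cages, were given a new partner every day and went through no defeat. In the study's account the stressed mice taken for arrays were of the susceptible kind that avoids an unfamiliar ICR mouse, which the sample labels do not state. The labels do not say what the replicate numbers stand for, and the p-values measure only the spread between these samples.

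NF-kB is a family of transcription factors that inhibitor proteins such as IkB-alpha hold in the cytoplasm. Toll-like receptors and the IL-1 receptor signal through the adaptor MyD88, and tumour necrosis factor through its own receptor, to release NF-kB, which then switches on cytokines, chemokines and its own inhibitors. In the brain these signals come mainly from microglia, astrocytes and vessel cells, and IL-6 family cytokines act through the shared receptor chain gp130, STAT3 and C/EBP factors to induce acute phase genes.

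Letters of the binding motifs of these factors were looked up in the RefSeq promoter windows of the genes (GRCm38.p6, from 250 bases before to 50 bases after each start, both strands), since they show which members carry the pathway's own sequence. Of the 32 genes, 24 had a window. The NF-kB consensus was found in 9 of these 24 genes (37.5%), against 5.14% of the 27025 genes and 4.51% of the 32851 windows in the table, which is a description of a list picked for this pathway. The 7 measured genes among them were Tlr2, Il6, Cxcl1, Cxcl2, Cxcl10, Tnfaip3 and Nfkbia. The STAT palindrome TTCNNNGAA stood in 4 genes (3 measured, Tnfrsf1a, Myd88 and Socs3), against 9.55% of all genes and 8.30% of windows. The C/EBP half-site pair TTGCNNAA stood in 4 genes (3 measured, Ptgs2, Il6 and Saa3), against 12.2% of all genes and 10.8% of windows. No matches of different motifs overlapped in these genes (0 overlaps). Matched letters are not a bound site, and nothing on these arrays measured binding. The following stretches of 60 bases from RefSeq, written 5′ to 3′ on the strand of the gene with the matched letters in capitals, are those of the members whose values the results turn on: an adaptor and a receptor, a pair of inhibitors, and a cytokine and chemokines. They lie at chr3:83841747-83841806 on the minus strand (Tlr2), chr10:19015411-19015470 minus (Tnfaip3), chr12:55492648-55492707 minus (Nfkbia), chr5:90891149-90891208 plus (Cxcl1), chr5:90903777-90903836 plus (Cxcl2), chr5:30013045-30013104 plus (Il6), chr9:119340031-119340090 minus (Myd88) and chr11:117969487-117969546 minus (Socs3).
Tlr2, NF-kB consensus: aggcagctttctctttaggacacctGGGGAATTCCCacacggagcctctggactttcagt
Tnfaip3, NF-kB consensus: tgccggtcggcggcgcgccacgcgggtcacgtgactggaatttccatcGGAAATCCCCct
Nfkbia, NF-kB consensus: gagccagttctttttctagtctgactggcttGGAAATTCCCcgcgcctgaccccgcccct
Cxcl1, NF-kB consensus: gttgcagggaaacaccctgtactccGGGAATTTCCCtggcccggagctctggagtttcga
Cxcl2, NF-kB consensus: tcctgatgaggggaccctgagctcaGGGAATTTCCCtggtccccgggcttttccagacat
Il6, NF-kB consensus: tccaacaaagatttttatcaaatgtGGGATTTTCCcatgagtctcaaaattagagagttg
Myd88, STAT palindrome: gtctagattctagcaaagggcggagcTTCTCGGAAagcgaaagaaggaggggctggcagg
Socs3, STAT palindrome: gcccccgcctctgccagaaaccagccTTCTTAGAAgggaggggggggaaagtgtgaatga
The neighbouring chemokine genes Cxcl1 and Cxcl2 carried the same matched letters, at -71 to -61 and -97 to -87 from their starts. The match of Tnfaip3 shown here ended 3 bases before its start and was 1 of 2 in its window.

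All values below are log2 intensities as the authors normalised them (RMA), and a difference is the R-SDS mean minus the Control mean on this log2 scale. Pairs of arrays had correlations of 0.988 to 0.996 across the 21789 tested transcripts, those with 1 gene symbol. Array values are given in the order of the replicate numbers 1 and 2. They carry no detection call. A member was therefore called dim where its mean over the 4 arrays was at or below 5.15, the 95th percentile of the means of 1258 olfactory, vomeronasal and taste receptor transcripts, most of which the hippocampus does not use. All 10 hippocampal neuron markers and 8 of 9 microglia markers lay above that bound, while 8 of 10 neutrophil markers did not. The arrays differed in the levels of choroid plexus, brain endothelium and meningeal markers. The summed linear level of 12 choroid plexus markers was 3326 and 631 in Control and 13891 and 897 in R-SDS. Ttr, the brightest of them in every array, read 11.38 and 7.43 in Control and 13.21 and 8.79 in R-SDS on the log2 scale. Within number 2 only 5 of the 12 were higher in R-SDS. The sum of 11 brain endothelium markers ran from 2769 to 3191 in Control, against 3932 for R-SDS 1 and 2993 for R-SDS 2. That of 10 meningeal markers was 2987 in R-SDS 1 against 1860 to 2129 in the other arrays. Igf2, the brightest of these 10 in R-SDS 1, read 8.80 and 8.29 in Control and 10.07 and 8.37 in R-SDS. All 10 were higher in R-SDS within number 1, but only 3 within number 2. Dcn was highest in R-SDS 2 and Col3a1 in Control 2. The microglia sum was 1658 and 1396 in Control and 1660 and 1543 in R-SDS. In pieces of tissue such as these, fewer cells of a type and less RNA per cell cannot be told apart.

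None of the 29 members passed an adjusted p of 0.05 in limma (0 of 29, against 0.0% of all tested transcripts), and 0 passed the study's own criteria (an unadjusted p under 0.05 and a size over 0.5 on the log2 scale), which 0.147% of transcripts passed as higher and 0.193% as lower in R-SDS. At an unadjusted p under 0.05 limma gave 1 member, Myd88, against 1.01% of all transcripts. Differences of the members ran from -0.34 to 0.33, with a median of 0.09 and a median size of 0.11, where the median over all tested transcripts was 0.0072 and their median size 0.074. The mean was higher in R-SDS for 19 of the 29 members, against 52.8% of all transcripts. Both R-SDS arrays lay above both controls in 3 members (Myd88, Tlr2 and Tnfaip3), and this share was near the 9.41% of all transcripts. Both lay below in 1 member, Saa3, against 9.06% of all transcripts. The plot of the members by array shows how the colours of both groups mix in most rows. The controls differed from each other by more than the groups did in 24 of the 29 members, or 82.8%, against 74.5% of all transcripts.

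**Figure D1:**
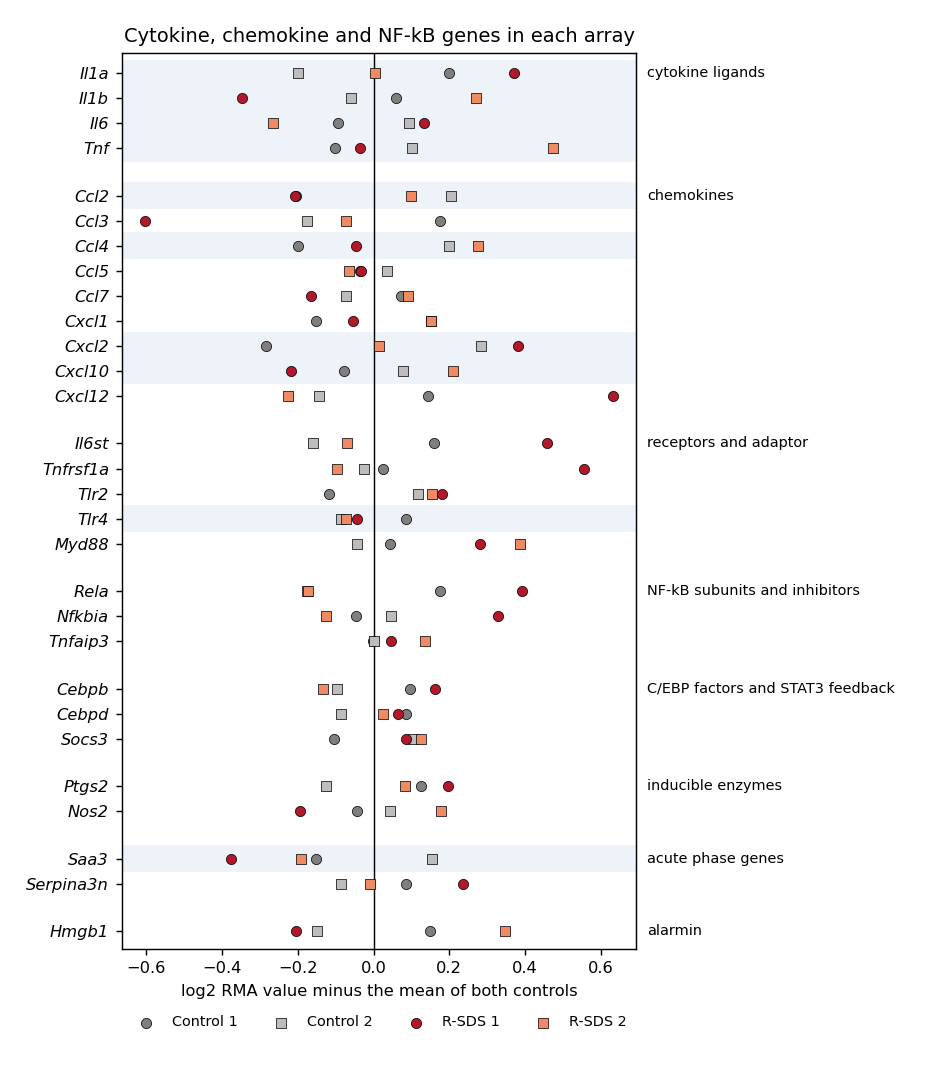
Log2 RMA value of each measured member in each of the 4 arrays, minus the mean of both Control arrays (x axis, log2), with the genes in rows by role and dim members on a shaded ground. The R-SDS points lie on both sides of 0 in most rows, and in Myd88, Tlr2 and Tnfaip3 both lie to the right of both Control points.

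The inflammatory cytokine ligands were all dim. Il1b, which encodes the secreted pyrogen IL-1 beta, read 4.68 and 4.56 in Control and 4.27 and 4.89 in R-SDS. The R-SDS arrays enclosed both controls from below and above, and the difference was -0.04 (SE 0.22, 95% interval -0.58 to 0.50). Il1a, which encodes the related alarm cytokine IL-1 alpha, read 4.26, 3.86, 4.44 and 4.07 in the same order of arrays. Its groups overlapped, with the arrays numbered 1 above those numbered 2 in each group, and the difference was 0.19 (SE 0.20, interval -0.30 to 0.68). Il6, the gene of the cytokine that drives the acute phase response, read 1.92, 2.11, 2.14 and 1.75. Only 3.02% of the chemosensory receptor transcripts had a lower mean than Il6, and its groups overlapped, with a difference of -0.07 (SE 0.18, interval -0.50 to 0.37). Tnf, which encodes tumour necrosis factor, read 4.71 and 4.92 in Control and 4.78 and 5.29 in R-SDS. R-SDS 2 was its highest array and the only one past the bound of 5.15, R-SDS 1 lay between the controls, and the difference was 0.22 (SE 0.20, interval -0.27 to 0.71). The intervals of these 4 ligands each covered 0 and each held a rise of 0.37, so a rise of that size was within the error for all of them.

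Chemokines are the small secreted proteins that guide leukocytes, and 4 of the 9 on this list had a higher mean in R-SDS, with a median difference of -0.0046. Ccl3, a ligand made by activated microglia and macrophages, had the lowest difference of all members. It read 5.65 and 5.30 in Control and 4.87 and 5.40 in R-SDS. The groups overlapped, because R-SDS 1 was below every other array and R-SDS 2 lay between the controls, and the difference was -0.34 (SE 0.22, interval -0.88 to 0.20). Without R-SDS 1 it was -0.07. The dim chemokines were Ccl2 and Ccl4, which attract monocytes and other leukocytes, Cxcl2, a neutrophil attractant, and Cxcl10, a chemokine that interferon induces. Their differences were -0.05 for Ccl2, 0.11 for Ccl4, 0.20 for Cxcl2 and -0.0046 for Cxcl10, with SEs of 0.18 to 0.23. Ccl5, Ccl7 and Cxcl1 lay above the bound and differed by -0.05, -0.04 and 0.05 (SE 0.13 to 0.16). Cxcl2 was 0.67 higher in R-SDS 1 than in Control 1, and its difference within number 2 was -0.27. For Cxcl1, which shares the matched promoter letters, these differences were 0.10 and -0.0013.

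Cxcl12, which encodes the constitutive chemokine SDF-1 of vessel and stromal cells, lay well above the bound, and a single array stood out. It read 7.36 and 7.08 in Control and 7.85 and 6.99 in R-SDS. R-SDS 1 was the highest and R-SDS 2 the lowest of the 4 arrays, and the difference of 0.20 (SE 0.29) became -0.23 without R-SDS 1. R-SDS 1 was also the array with the highest sums of choroid plexus, endothelium and meningeal markers, whose part in this value was not tested.

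Receptors and their adaptor had the highest median difference of the roles with several members, 0.19, and 4 of 5 had a higher mean in R-SDS. Their median was 0.30 within number 1 but 0.04 within number 2. Myd88, the adaptor that links Toll-like and IL-1 receptors to NF-kB, showed the largest positive difference of all 29 members. It read 6.46 and 6.37 in Control and 6.69 and 6.80 in R-SDS. Both R-SDS arrays lay above both controls, with gaps of 0.24 within number 1 and 0.43 within number 2. The difference was 0.33 (SE 0.13, interval 0.01 to 0.66), or 1.26-fold, and limma's adjusted p was 1. With any 1 array left out it ran from 0.28 to 0.39. Tlr2, which encodes a receptor for bacterial lipopeptides on microglia, read 5.58 and 5.81 in Control and 5.88 and 5.85 in R-SDS. Both R-SDS arrays were above both controls, but the gap between R-SDS 2 and Control 2 was only 0.04, and the difference was 0.17 (SE 0.14, adjusted p of 1 in limma). Tlr4, the endotoxin receptor gene, was dim and differed by -0.06 (SE 0.14).

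The receptors Tnfrsf1a and Il6st moved with R-SDS 1. Tnfrsf1a, which encodes the main receptor of tumour necrosis factor, read 6.92, 6.87, 7.45 and 6.80 in Control 1, Control 2, R-SDS 1 and R-SDS 2. R-SDS 1 stood above the other arrays and R-SDS 2 was the lowest, so that the difference of 0.23 (SE 0.23) turned to -0.10 without R-SDS 1. Il6st, which encodes gp130, the signalling chain shared by IL-6 family receptors, read 9.03, 8.71, 9.32 and 8.80. Within number 1 it was 0.30 higher and within number 2 it was 0.09 higher in R-SDS, while the groups overlapped and the difference of 0.19 (SE 0.22) was -0.07 without R-SDS 1. The sums of endothelium and of meningeal markers, though not every marker, were highest in the same array. The part of those tissues in the values of both receptors was not tested.

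NF-kB itself was represented by Rela, the gene of the p65 subunit, and by the inhibitor genes Nfkbia (IkB-alpha) and Tnfaip3 (A20, a deubiquitinating enzyme that shuts the pathway off). The R-SDS mean of all 3 was higher, by 0.11 (SE 0.23) for Rela, 0.10 (SE 0.18) for Nfkbia and 0.09 (SE 0.13) for Tnfaip3, and none passed limma's adjusted p. Tnfaip3 read 5.83 in both controls, 5.88 in R-SDS 1 and 5.97 in R-SDS 2. Both R-SDS arrays lay above the controls, by 0.05 within number 1 and 0.13 within number 2. Nfkbia, a direct NF-kB target whose promoter letters are printed above, read 7.78, 7.87, 8.15 and 7.70. It was highest in R-SDS 1 and lowest in R-SDS 2, and without R-SDS 1 the difference was -0.13. Rela was 0.22 higher in R-SDS within number 1 and 0.0020 within number 2.

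Of the transcription factor genes downstream of IL-6, Cebpb and Cebpd differed by 0.01 (SE 0.16) and 0.05 (SE 0.14), with overlapping groups. Socs3, the STAT3-induced inhibitor of gp130 signalling, read 6.18 and 6.39 in Control and 6.37 and 6.41 in R-SDS, a difference of 0.11 (SE 0.14). R-SDS 1 lay below Control 2, so the groups overlapped. A dimmer second row for Socs3 differed by -0.08 (SE 0.14), so that the direction depended on the row.

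Ptgs2, which encodes the prostaglandin-forming enzyme COX-2 and is used by hippocampal neurons without inflammation, read 9.64 and 9.39 in Control and 9.71 and 9.60 in R-SDS. R-SDS 2 lay between the controls, and the difference was 0.14 (SE 0.15). Nos2, the inducible nitric oxide synthase gene, lay just above the bound with a mean of 5.18 and differed by -0.0078 (SE 0.17). Just below the bound lay Ccl2, with a mean of 5.09.

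The acute phase genes Serpina3n and Saa3 pointed in opposite directions. Serpina3n, a protease inhibitor gene of reactive astrocytes, read 9.17 and 8.999 in Control and 9.32 and 9.08 in R-SDS. Its groups overlapped and it was higher in R-SDS within each number, by 0.15 and 0.08, for a difference of 0.11 (SE 0.15). Saa3, an inducible serum amyloid A gene, read 3.64 and 3.95 in Control and 3.42 and 3.60 in R-SDS. Both R-SDS arrays lay below both controls, but every reading was under the bound, and the difference was -0.29 (SE 0.16, adjusted p of 1 in limma). Hmgb1, a chromatin protein that acts as an alarmin once released from cells, read 7.42, 7.12, 7.07 and 7.62 and differed by -0.35 within number 1 and 0.50 within number 2. Its symbol also stood in 34 rows shared with other symbols, whose differences lay between -0.0925 and 0.0416. Of these rows 3 had a higher mean in R-SDS, and the median level of the 34 was 10.1, so the single row is uncertain.

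The members were also described by brightness, and no difference between the classes was tested. The 19 members above the bound had a median difference of 0.10, and 15 of them had a higher mean in R-SDS, where all 15768 transcripts above the bound had a median of 0.011 and a higher mean in 54.7%. The 10 dim members (Il1a, Il1b, Il6, Tnf, Ccl2, Ccl4, Cxcl2, Cxcl10, Tlr4 and Saa3) had a median of -0.02, with a higher mean in 4, and the chemosensory receptor transcripts had a median of -0.019 and a higher mean in 45.5%. Without R-SDS 1 the order of these medians turned, to 0.025 above the bound (10 of 19 higher) and 0.057 for the dim members (7 of 10 higher). All 9 members above the median of all transcripts (6.55) had a higher mean in R-SDS, with a median of 0.14. They were Cxcl12, Hmgb1, Il6st, Myd88, Nfkbia, Ptgs2, Rela, Serpina3n and Tnfrsf1a. The share of all transcripts above 6.55 with a higher mean was not counted, nor were such shares without R-SDS 1. These counts are therefore a description of the members only. For the 9 members the median was 0.24 within number 1 and 0.08 within number 2. The single row of Hmgb1 among them is uncertain, as stated above. Without R-SDS 1, the array with the highest choroid plexus, endothelium and meningeal sums, only 3 of the 9 had a higher mean (Hmgb1, Myd88 and Ptgs2) and the median was -0.07, and the part of those tissues was not tested. The median size of difference was 0.113 for the chemosensory receptor transcripts and 0.065 for all transcripts above the bound. Among the members it was 0.090 for the dim ones and 0.106 for those above the bound.

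**Figure D2:**
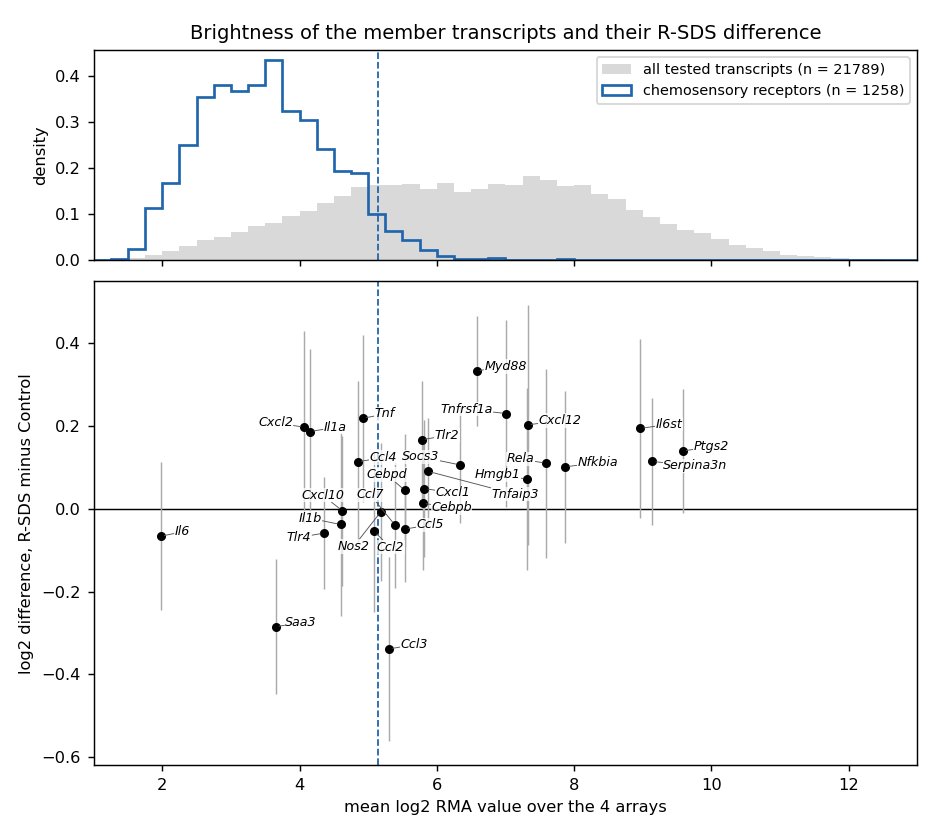
Upper panel, distribution of the mean log2 RMA value over the 4 arrays for all 21789 tested transcripts (grey) and 1258 chemosensory receptor transcripts (blue line), with the bound of 5.15 as a dashed line. Lower panel, difference R-SDS minus Control (log2) of each member against its mean, with bars of 1 limma standard error, where the cytokine ligands lie left of the bound and Myd88 has the largest positive difference.

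Within the replicate numbers, 11 of the 29 members were higher in R-SDS in both, against 27.3% of all transcripts, and 2 were lower in both (Ccl2 and Saa3), against 22.7%. The other 16 members, or 55.2%, had opposite signs, against 49.4% of all transcripts. The median difference of the members was 0.07 within either number. The members with the widest disagreement were Cxcl2, Hmgb1, Ccl3 and Il1b, named after their values were seen. The signs of 8 members held with any 1 array left out. Myd88, Tlr2, Tnfaip3, Socs3 and Ptgs2 stayed higher in R-SDS, and Ccl3, Ccl5 and Saa3 stayed lower. In Myd88, Tlr2, Tnfaip3 and Saa3 the groups did not overlap, so their signs could not turn. The share of all transcripts whose sign held was not counted. The median of the 29 members, 0.09 with all arrays, was 0.050 without Control 1, 0.035 without Control 2, 0.025 without R-SDS 1 and 0.065 without R-SDS 2. The median of those above the bound was 0.035 without Control 2, 0.025 without R-SDS 1 and 0.16 without R-SDS 2.

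**Figure D3:**
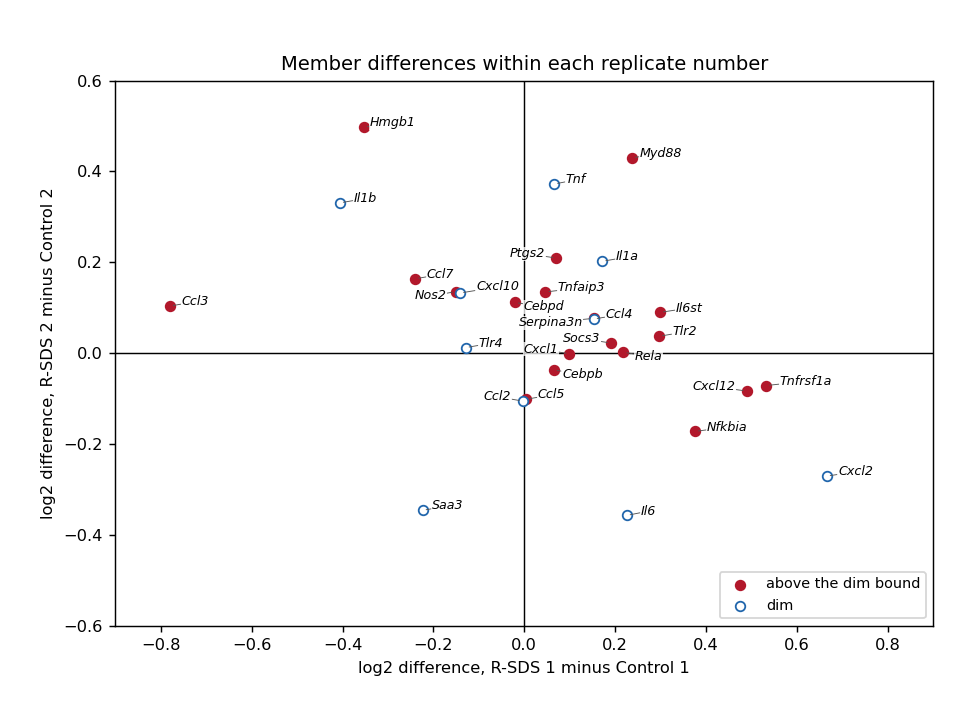
Difference R-SDS 1 minus Control 1 (x axis, log2) against R-SDS 2 minus Control 2 (y axis, log2) for each member, filled where the member is above the bound and open where it is dim. Myd88 lies at the upper right with 0.24 and 0.43, whereas Cxcl12, Tnfrsf1a and Nfkbia are higher only within number 1 and Hmgb1, Ccl3 and Il1b only within number 2.

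The rest of the pathway was read from 7 lists with 131 genes, of which 114 were measured. Of these, 63 had a higher mean in R-SDS, with a median difference of 0.02, and 0 passed an adjusted p of 0.05 in limma. Both R-SDS arrays lay above both controls in 14 genes and below both in 14, shares near the 9.41% and 9.06% of all transcripts. The study's criteria were met by 4 genes as higher (Lcn2, Ch25h, Steap4 and Ppbp), against 0.147% of all transcripts, and by 0 as lower, against 0.193%. The lists were chosen with earlier results of these data known, so these counts are a description only.

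Among 23 other NF-kB genes 13 had a higher mean (median 0.02). The largest differences were those of Irak3, a brake on MyD88 signalling (0.26, SE 0.13), and the survival factor gene Birc3 (0.26, SE 0.13, dim), and the lowest those of Traf1 (-0.19, dim) and the subunit gene Rel (-0.15). Irak3 read 5.92 and 5.85 in Control and 6.16 and 6.13 in R-SDS. In 2 genes of this list both R-SDS arrays lay above both controls (Irak3 and Birc3), against 9.41% of all transcripts. Both lay below both controls in 5, against 9.06% (Rel, Traf1, Ikbkb, Map3k7 and Irak1, the last 3 named after their values were seen). Of 12 Toll-like receptor genes and partners 9 had a higher mean (median 0.13), led by Tlr9 (0.26, SE 0.13) and the TLR4 partner Ly96 (0.18), with Tlr8 (-0.15, dim) and Tlr1 (-0.14, dim) at the other end. In the IL-1 and TNF families 9 of 17 had a higher mean (median 0.01), with Casp1, the protease that matures IL-1 beta (0.21), and Tnfsf10 (0.21) as the highest, and Il18r1 (-0.39, dim) and the nuclear alarmin Il33 (-0.19) as the lowest.

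In the IL-6 and STAT3 list 8 of 15 genes had a higher mean (median 0.0060). Osmr, the oncostatin M receptor chain that pairs with gp130, read 6.41 and 6.20 in Control and 6.72 and 6.56 in R-SDS. Both R-SDS arrays lay above both controls, by 0.32 within number 1 and 0.36 within number 2, and the difference was 0.34 (SE 0.15, adjusted p of 1 in limma). The dim gene Il11 followed with 0.25, and Osm (-0.07, dim) and Pim3 (-0.04) were the lowest. Of 19 other chemokines 7 had a higher mean (median -0.03), from the platelet chemokine Ppbp (0.78, dim) and Cxcl16 (0.28, dim) down to Ccl28 (-0.43) and Cxcl13 (-0.35, dim). Of 16 chemokine receptors 9 had a higher mean (median 0.01), with Ackr1 (0.18) and Ccr6 (0.14, dim) highest and Cxcr5 (-0.14, dim) and Ccr1 (-0.13, dim) lowest. Cx3cr1, the fractalkine receptor gene of microglia, read 8.15 in each array numbered 1 and 8.14 in each numbered 2.

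The list of acute phase and reactive glia genes had the widest differences, with 8 of 12 higher and a median of 0.11. Lcn2, the gene of lipocalin 2, an iron-binding acute phase protein that IL-1 and NF-kB induce, read 4.57 and 4.56 in Control and 7.80 and 6.47 in R-SDS. Both controls were under the bound and both R-SDS arrays above it, and the difference was 2.57 (SE 0.40, adjusted p of 1 in limma). Ch25h, the cholesterol 25-hydroxylase gene, read 4.89 and 4.84 in Control against 5.93 and 5.45 in R-SDS, a difference of 0.82 (SE 0.19). The lowest were Saa2 (-0.17, dim) and Cd44 (-0.11). Lcn2 was 3.23 higher within number 1 and 1.91 within number 2, and Ch25h 1.04 and 0.60. The summed choroid plexus markers in R-SDS were 4.18 times those of Control within number 1 and 1.42 times within number 2. Within number 2 only 5 of the 12 were higher, with a median difference of -0.09, while Ttr, the brightest of them, was 1.36 higher. The summed endothelium markers were 1.23 and 1.08 times those of Control, and the part of both tissues in these values was not tested. Beside Lcn2 and Ch25h the cytokine ligands Il1b, Il6 and Tnf and the chemokine Ccl2 had group means under the bound in R-SDS and in Control.

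**Figure D4:**
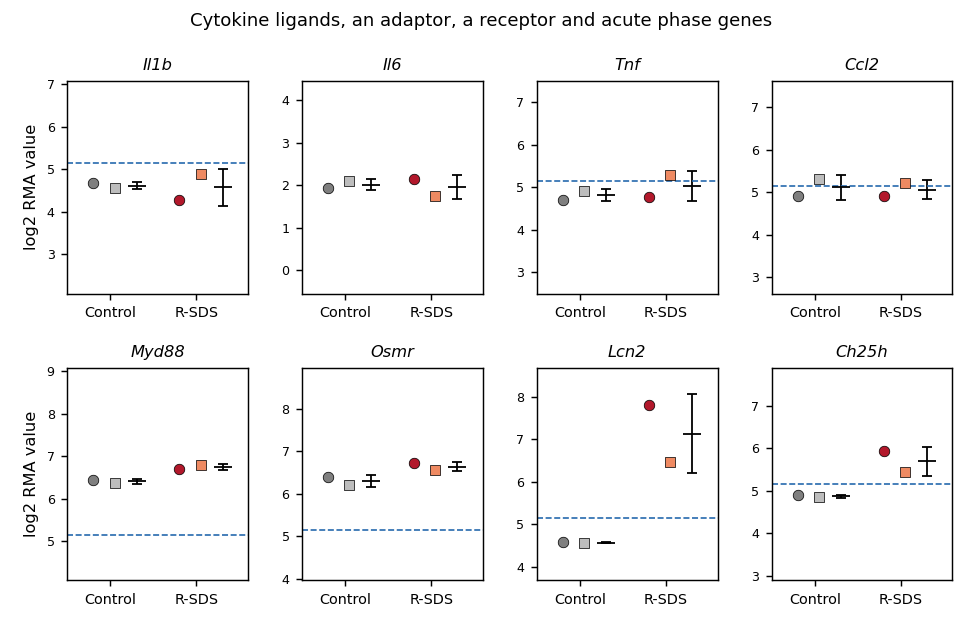
Log2 RMA values of 4 dim ligands (upper row) and of Myd88, Osmr, Lcn2 and Ch25h (lower row) in Control and R-SDS arrays, circles for replicate number 1 and squares for number 2, with the mean and SD (n = 2) beside them and the bound of 5.15 as a dashed line. Every panel spans the same height on the log2 axis, and in Lcn2 and Ch25h both Control points lie below the bound and both R-SDS points above it.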

How the data were processed

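Hippocampal RNA of 4 mice was labelled and read on whole-transcript microarrays made by Affymetrix, with a single array for each sample. The deposited values are log2 intensities that the authors, per the labels, computed by RMA using Expression Console of Affymetrix. The genome build and any grouping of arrays during RMA are not given in the sources used here. The interquartile range over all 35556 rows followed the replicate number (3.34 and 3.37 in number 1, 3.06 and 3.11 in number 2), so differences within each number are given. The values hold no depth, and the number of arrays limits precision. An exact permutation test of 2 against 2 arrays cannot give a two-sided p below 0.333.

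Rows with exactly 1 gene symbol in the platform annotation were kept (21789, while 1621 had several and 12146 were not listed). Of their Entrez identifiers 99.6% matched RefSeq. R-SDS was compared with Control by limma 3.58.1 (lmFit and eBayes, R 4.3.3) on all 4 arrays, without a block, with two-sided p-values adjusted by Benjamini-Hochberg over all 21789 and moderated standard errors (2 residual and 4.07 prior degrees of freedom), which also give the 95% intervals. The procedure was tested on simulated data with independent noise in each array, which lacked the deviation that same-numbered arrays share. Members and gene lists were chosen with earlier results of these data known. Per-array values were to be given for ligands and for members above the bound that did not overlap or differed by over 0.25, and of each pathway list the 2 genes at each end. Other genes with per-array values were picked after seeing them. Alternatives were quantile normalisation, median centring, a replicate block, the methods' t-test, dropping dim transcripts, other bounds, the mean of a gene's rows and leaving out each array.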

Additional observations from a re-analysis of the deposited data

How the results depend on the processing

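With quantile normalisation, median centring, the replicate block, dim transcripts left out or 1 array left out, 0 members passed the adjusted p in limma (smallest adjusted p 0.955, for Cxcl12 without R-SDS 2), and 0 passed in the methods' t-test. Members with a higher mean in R-SDS numbered 16 to 21 of 29, and 15 of the 19 tested with dim transcripts left out. The study's criteria on all transcripts gave 32 higher and 42 lower, but 54 higher with the replicate block, 6 and 13 with the methods' t-test, 16 and 5 with dim transcripts left out, and 74 to 416 higher and 67 to 323 lower with 1 array left out. Leaving out 1 array gave 0 to 46 transcripts past the adjusted p as higher and 0 to 3 as lower, and 0 to 2 members past the study's criteria as higher (Cxcl12 and Tnfrsf1a without R-SDS 2) and 0 to 1 as lower (Ccl3 without R-SDS 2). Members at an unadjusted p under 0.05 numbered 0 with median centring, 2 with the replicate block (Myd88 and Saa3) and 0 to 3 with 1 array left out. The median difference of the members (0.091) was 0.076 with median centring, 0.102 with dim transcripts left out, 0.072 with the mean of a gene's rows and 0.025 to 0.065 with 1 array left out. That of the members above the bound (0.102) was 0.140 with the median of all means as the bound, which made 20 members dim in place of 10, and 0.025 to 0.162 with 1 array left out. The sign of 21 members turned without some array, with ranges of -0.012 to 0.39 for Il1a, -0.35 to 0.27 for Il1b, -0.26 to 0.13 for Il6, -0.037 to 0.47 for Tnf, -0.26 to 0.15 for Ccl2, -0.087 to 0.31 for Ccl4, -0.17 to 0.090 for Ccl7, -0.10 to 0.20 for Cxcl1, -0.087 to 0.48 for Cxcl2, -0.22 to 0.21 for Cxcl10, -0.23 to 0.63 for Cxcl12, -0.069 to 0.46 for Il6st, -0.10 to 0.56 for Tnfrsf1a, -0.14 to 0.026 for Tlr4, -0.17 to 0.39 for Rela, -0.13 to 0.33 for Nfkbia, -0.13 to 0.16 for Cebpb, -0.041 to 0.13 for Cebpd, -0.19 to 0.18 for Nos2, -0.0082 to 0.24 for Serpina3n and -0.20 to 0.35 for Hmgb1. The share of all transcripts whose sign turned was not counted. Quantile normalisation turned Cxcl10 to 0.025 and Nos2 to 0.022, and median centring turned Cebpb to -0.00096. The cause of these moves was not tested beyond the arrays or transcripts left out, and a lone array was assumed to vary like the others. Same-numbered arrays deviated together (r = 0.517 across transcripts). With the replicate numbers compared in place of the stress, limma gave 5893 transcripts at an unadjusted p under 0.05, against 221 between R-SDS and Control. The main fit had no block, so its standard errors hold the spread between the numbers. The labels do not say that the samples are paired, so the samples share only a number. The replicate block gave 0 called transcripts. The values carry no measure of signal over background other than the chemosensory bound, and the means of 10 members did not exceed it.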
